A study of Mus musculus with 12 samples.

Results

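The CC chemokines are small secreted proteins that draw leukocytes into tissue, and 8 of them were described here in the lung of mice that breathed ozone (O3). They were Ccl2 and Ccl7, which attract monocytes, Ccl3 and Ccl4, the macrophage inflammatory proteins, Ccl11 (eotaxin), Ccl17 and Ccl22, which share a receptor on T cells, and Ccl20, which attracts dendritic cells and lymphocytes. Members were chosen by gene symbol: every probe set annotated with exactly 1 of the 8 symbols was taken, and each symbol had 1 such probe set among the 45101 on the array. All 8 probe sets passed the filter on dim values, and they stood for 8 of the 17569 genes tested.

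Lung RNA was measured in 12 male mice aged 6 to 8 weeks, 1 mouse per Affymetrix Mouse Genome 430 2.0 array, with 3 mice in each of 4 groups. Nfkb1KO-O3 mice lacked Nfkb1 (stock B6;129P-Nfkb1tm1Bal/J), the gene of the p50/p105 subunit of NF-κB, and breathed 0.3 ppm O3 without a break for 48 h, WT-O3 mice carried Nfkb1 (stock B6129PF2/J) and had the same exposure, and Nfkb1KO-Air and WT-Air mice were their counterparts kept in filtered air for the same time. The deletion was present in every cell, the 2 genotypes came from separate stocks of mixed background, and O3 and air were given in separate chambers, so that genotype and stock, and O3 and chamber, cannot be told apart. The RNA came from homogenised left lung, and the comparisons ask which of these genes changed with O3 and whether that change differed in mice without Nfkb1.

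CC chemokines bind G protein-coupled receptors on leukocytes, and most of their genes lie in clusters that arose by duplication. Many are immediate targets of NF-κB in epithelium, macrophages and dendritic cells. The p50 protein made from Nfkb1 can act on such genes in either direction, since paired with RelA or c-Rel it activates transcription, whereas p50 homodimers can hold a promoter silent.

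In the RefSeq annotation (GRCm38.p6) Ccl2, Ccl7 and Ccl11 were neighbours on chromosome 11. Ccl3 and Ccl4 lay next to each other further along that chromosome with overlapping spans. Whether the probe set of either gene also reads RNA of the other was not checked. Ccl17 and Ccl22 lay close together on chromosome 8, and Ccl20 on chromosome 1. A RefSeq promoter was at hand for 4 of the 8 members, Ccl3, Ccl17, Ccl20 and Ccl22, and the 250 bases before the start were searched on both strands for an NF-κB site (the NF-κB decamer consensus), for 2 forms of the STAT site (TTCNNNGAA, and the same with 4 free bases between the arms) and for an AP-1 site (TGANTCA). The promoters of Ccl17, Ccl22 and Ccl20 are shown because the results below turn on these genes, with every match in capitals.
Ccl17 (chr8:94810203-94810452, plus strand): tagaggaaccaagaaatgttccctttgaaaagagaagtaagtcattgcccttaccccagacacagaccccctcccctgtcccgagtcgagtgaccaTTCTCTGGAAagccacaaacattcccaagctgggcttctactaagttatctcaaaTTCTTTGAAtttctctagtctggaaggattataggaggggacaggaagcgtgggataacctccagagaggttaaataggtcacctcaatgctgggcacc
Ccl22 (chr8:94745434-94745683, plus strand): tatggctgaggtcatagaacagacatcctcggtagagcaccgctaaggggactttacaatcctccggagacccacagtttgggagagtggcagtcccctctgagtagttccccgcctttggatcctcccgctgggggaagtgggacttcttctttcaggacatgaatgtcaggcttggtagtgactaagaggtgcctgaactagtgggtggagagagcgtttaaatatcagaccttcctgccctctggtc
Ccl20 (chr1:83116516-83116765, plus strand): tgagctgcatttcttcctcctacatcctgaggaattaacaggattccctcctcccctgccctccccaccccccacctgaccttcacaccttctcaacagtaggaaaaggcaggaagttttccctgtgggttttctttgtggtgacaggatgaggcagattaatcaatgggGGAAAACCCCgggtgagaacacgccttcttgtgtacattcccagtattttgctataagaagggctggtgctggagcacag
The Ccl20 promoter held an NF-κB decamer, read on the minus strand, 80 to 71 bases before the start. Such a match stood in 5% of all 32841 promoters of this length. The Ccl17 promoter, whose start lies inside the annotated span of the gene, held 1 match to each STAT form, 154 to 145 and 99 to 91 bases before the start. These forms stood in 5.85% (4 free bases) and 7.02% (3 free bases) of all promoters. No searched motif was found in the 250 bases of Ccl22 or Ccl3, and the AP-1 site, present in 6.75% of promoters, was found in none of the 4. Only these exact forms were searched, and NF-κB sites that depart from the decamer consensus were not looked for. The study lists potential NF-κB motifs for both Ccl22 and Ccl17. The run of bases it lists for Ccl22 stands in the 250 bases printed above. It is in lower case there because it departs from the decamer consensus. Those listed for Ccl17 are not among the bases printed. The absence of a searched motif therefore does not show that Ccl22 lacks an NF-κB site. A match is only a run of letters, and binding was not measured.

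All values below are log2 signals after quantile normalisation of the 12 arrays, on which a difference of 1 is a 2-fold change and 4.37 marks the dimmest 20% of an array. Differences carry the standard error of a linear model fitted to all genes with limma, with n = 3 arrays in each group, and a gene was called when its Benjamini-Hochberg adjusted p over all genes tested was under 0.05. The lung identity of the tissue was plain from its markers: Sftpc, a surfactant gene of alveolar type II cells, lay at 14.28 to 14.58 in all 12 arrays. Of these arrays, 2 stood apart. Nfkb1KO-Air replicate 1 had a median deposited signal of 180.1, against 99.14 to 121.2 in the other 11, and WT-Air replicate 3 had a log2 signal of 12.31 for the muscle myosin Myh4, against 0.67 to 7.94 elsewhere. The controls added to every sample moved with exposure as well: the poly-A labelling controls averaged 8.42 ± 0.25 in O3 arrays and 8.80 ± 0.21 in air arrays (SD, n = 6 each, two-sided exact permutation p = 0.015), and the hybridisation controls 11.43 ± 0.05 in O3 arrays and 11.66 ± 0.10 in air arrays (two-sided exact permutation p = 0.0043), and their part in the results was not tested. No probe set was annotated to Nfkb1 alone, so the genotype labels were not checked against the deleted gene.

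**Figure D1:**
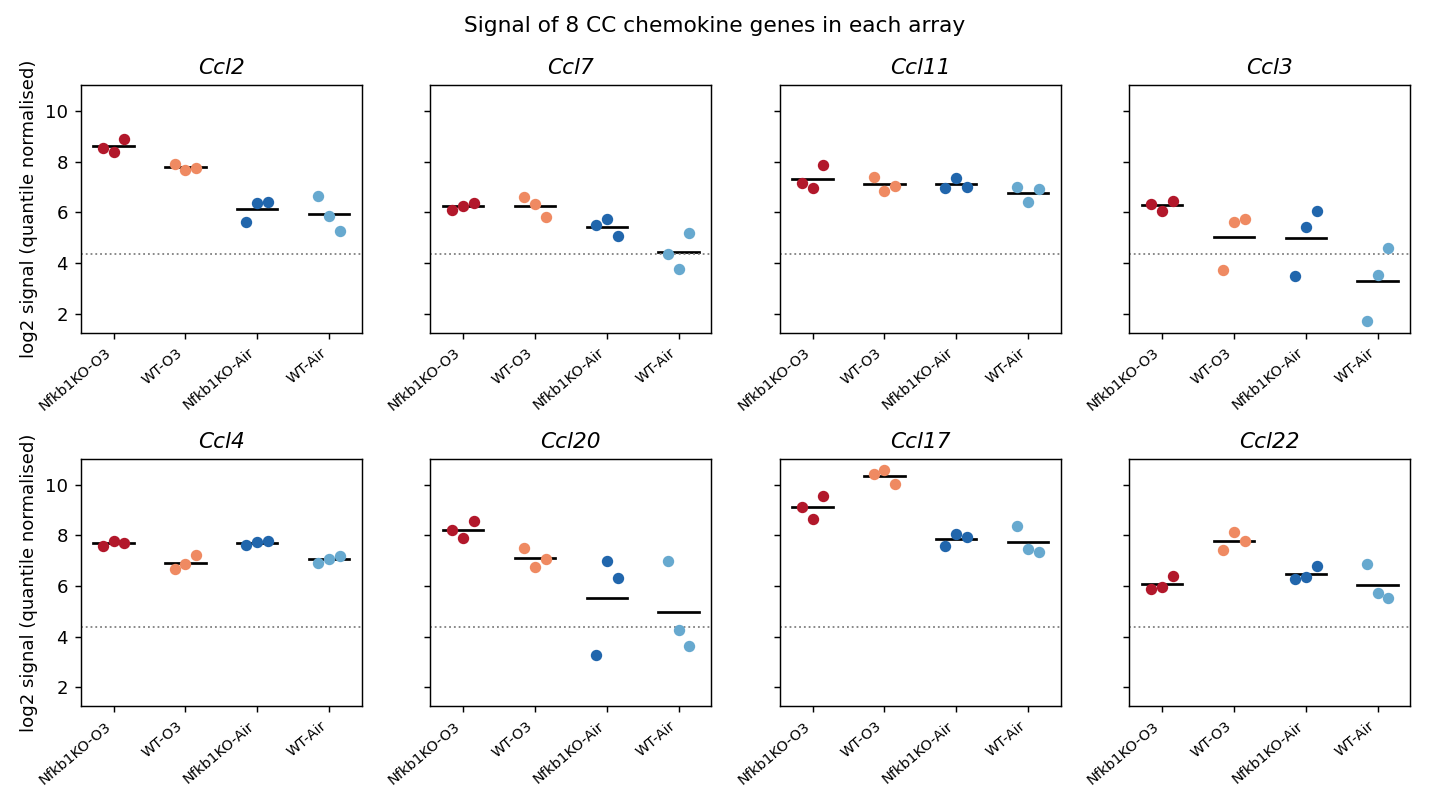
Log2 signal (vertical axes, quantile normalised) of each CC chemokine in each of the 12 arrays, by group (horizontal axes), with a bar at each group mean and a dotted line at the dim limit of 4.37. Ccl2 sits between 8.39 and 8.91 in Nfkb1KO-O3 lungs, above all other groups, whereas Ccl17 and Ccl22 reach their highest values in WT-O3 lungs.

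O3 raised Ccl2 and Ccl17 in both genotypes. In Nfkb1KO lungs 2 of 8 members were called, both higher after O3 (Ccl2 and Ccl17), where 3.35% of all genes tested were called higher and 6.18% in either direction. In WT lungs 4 of 8 were called, again higher (Ccl2, Ccl7, Ccl17 and Ccl22), where 3.16% of all genes were called higher and 5.4% in either direction. The median difference of the 8 genes was 1.02 in Nfkb1KO lungs, against -0.01 over all genes, and 1.79 in WT lungs, against -0.03 over all genes. With both genotypes averaged, Ccl2, Ccl7, Ccl17 and Ccl20 were called higher after O3, 4 of 8 members, beside 7.7% of all genes called higher and 15.2% called in either direction. The O3 and air groups did not overlap for 5 of 8 members in Nfkb1KO lungs (25.4% of all genes), for 4 of 8 in WT lungs (27.6%) and for 3 of 8 over both genotypes (Ccl2, Ccl7 and Ccl17, 7.62%). In whole lung a higher signal from more cells that make a transcript and one from more RNA per cell cannot be told apart.

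Ccl2, or MCP-1, recruits inflammatory monocytes through Ccr2. In Nfkb1KO lungs it had log2 signals of 8.54, 8.39 and 8.91 after O3, against 5.60, 6.37 and 6.40 in air. In WT lungs the signals were 7.90, 7.68 and 7.77 after O3, against 6.64, 5.86 and 5.25 in air. Every O3 lung lay above every air lung, and the 3 Nfkb1KO-O3 lungs lay above the 3 WT-O3 lungs, while the air groups overlapped. Ccl2 rose by 2.49 ± 0.34 in Nfkb1KO lungs (5.62-fold, limma adjusted p = 0.0022) and by 1.87 ± 0.34 in WT lungs (3.65-fold, adjusted p = 0.0088), and both calls held without any single array. After O3 the genotypes differed by 0.83 ± 0.34 with the higher mean in Nfkb1KO (95% interval 0.09 to 1.57, adjusted p = 0.43), and in air by 0.21 ± 0.34 (adjusted p = 0.86). The O3 difference itself was 0.62 ± 0.48 larger in Nfkb1KO (interval -0.42 to 1.67, adjusted p = 0.86), so that a difference in the size of the response was not shown.

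Ccl7, or MCP-3, acts on monocytes through Ccr2 and on further leukocytes through Ccr1 and Ccr3. It was dim, at 6.08, 6.26 and 6.36 in Nfkb1KO lungs after O3, against 5.51, 5.73 and 5.07 in air. The WT lungs had 6.62, 6.34 and 5.82 after O3, against 4.36, 3.76 and 5.18 in air, where replicates 1 and 2 lay below the dim limit. O3 and air lungs did not overlap in either genotype, and after O3 the genotypes overlapped (difference -0.03 ± 0.42, interval -0.93 to 0.87). The O3 difference in Nfkb1KO lungs was 0.79 ± 0.42 (interval -0.11 to 1.69, limma adjusted p = 0.3), and in WT lungs Ccl7 rose at least 3.07-fold (1.83 ± 0.42 on the log2 scale, adjusted p = 0.026). The 2 O3 differences were not shown to be unequal (-1.03 ± 0.59, adjusted p = 0.83). The WT call was lost without WT-O3 replicate 1 (adjusted p = 0.099), WT-O3 replicate 2 (0.11), WT-Air replicate 1 (0.069) or WT-Air replicate 2 (0.062), and when arrays were scaled by their medians (0.075) or as deposited (0.054). Averaged over genotypes Ccl7 rose at least 2.31-fold (adjusted p = 0.01), a call that held without any single array and was lost with the scaling as deposited (0.057).

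Ccl17 (TARC) and Ccl22 (MDC), made largely by dendritic cells and macrophages, both bind Ccr4 on type 2 helper and regulatory T cells. The log2 signals of Ccl17 in Nfkb1KO lungs were 9.14, 8.66 and 9.57 after O3, against 7.59, 8.06 and 7.96 in air. WT lungs had 10.42, 10.59 and 10.05 after O3, against 8.38, 7.45 and 7.34 in air. All O3 lungs exceeded all air lungs, and the 3 Nfkb1KO-O3 lungs lay below the 3 WT-O3 lungs, in the opposite order to Ccl2. Ccl17 rose by 1.25 ± 0.29 in Nfkb1KO (2.38-fold, limma adjusted p = 0.025) and by 2.63 ± 0.29 in WT (6.19-fold, adjusted p = 0.00051). It ranked 21st by p among all genes for O3 in WT lungs, and that call held without any single array. The Nfkb1KO call was lost without Nfkb1KO-O3 replicate 1 (adjusted p = 0.087) or 3 (0.088), without Nfkb1KO-Air replicate 1 (0.085) or 3 (0.052), and without both arrays that stood apart (0.075).

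Ccl22 was not called with O3 in Nfkb1KO lungs and was called in WT lungs. In Nfkb1KO lungs its log2 signals were 5.90, 5.98 and 6.41 after O3, against 6.28, 6.36 and 6.78 in air. In WT lungs they were 7.44, 8.15 and 7.78 after O3, against 6.89, 5.74 and 5.54 in air. The WT-O3 lungs were the highest group with no overlap with any other, whereas the Nfkb1KO-O3 lungs overlapped both air groups. The O3 difference of Ccl22 in Nfkb1KO was -0.38 ± 0.36 (interval -1.16 to 0.41, limma adjusted p = 0.6), and in WT Ccl22 rose by 1.73 ± 0.36 (3.33-fold, adjusted p = 0.018). The WT call was lost without WT-O3 replicate 2 (adjusted p = 0.097) or 3 (0.062), without WT-Air replicate 3 (0.07), and without both arrays that stood apart (0.051), with log2 differences of 1.48 to 1.74. Averaged over genotypes the O3 difference was 0.68 ± 0.26 (adjusted p = 0.097), and 0.89 (adjusted p = 0.02) without WT-Air replicate 1, the highest of the WT-Air lungs for Ccl22.

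The test of whether the O3 difference depended on genotype gave 0 of 8 members called, beside 0.0342% of all genes, or 6 genes. Ccl22 and Ccl17 had the smallest p of the 8. The O3 difference of Ccl22 was 2.11 ± 0.51 smaller in Nfkb1KO than in WT lungs (difference -2.11, interval -3.22 to -0.99, limma unadjusted p = 0.0013, adjusted p = 0.51), which ranked 46th of 17569 genes. That of Ccl17 was smaller by 1.38 ± 0.40 (difference -1.38, interval -2.26 to -0.50, unadjusted p = 0.0048, adjusted p = 0.65). These were the only members with an unadjusted p under 0.05 in this test, a level that 6.06% of all genes reached. Both failed the correction over all genes, also in the 12 other settings tried (adjusted p = 0.19 to 0.76 for Ccl22 and 0.37 to 0.86 for Ccl17) and in each of the 12 fits without 1 array. The two-way test of the study's methods, run on the same values, likewise gave 2 members at an unadjusted p under 0.05 and 0 after adjustment.

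**Figure D2:**
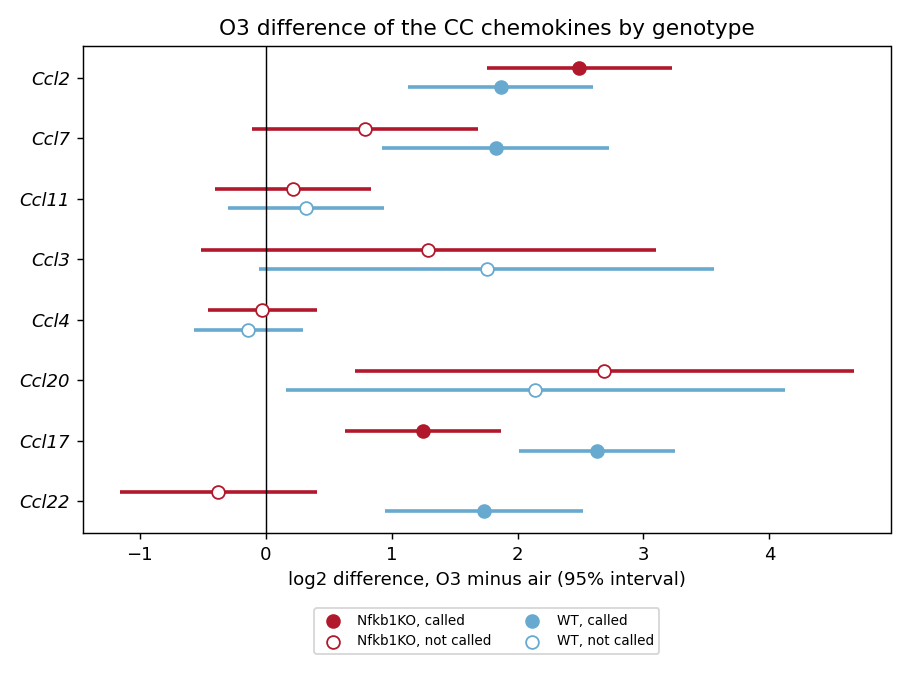
Log2 difference after O3 minus air (horizontal axis, points with 95% intervals) of each CC chemokine in Nfkb1KO (upper, red) and WT lungs (lower, blue), with filled points where the adjusted p was under 0.05. For Ccl22 the Nfkb1KO interval is -1.16 to 0.41 and the WT interval 0.95 to 2.52.

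Between genotypes after O3, 0 of 8 members were called with limma, beside 0.723% of all genes, and 4 of 8 (2 higher and 2 lower in Nfkb1KO) had an unadjusted p under 0.05, beside 9.43%. The 2 groups of 3 lungs did not overlap for 6 of the 8 (all but Ccl7 and Ccl11), as for 19.1% of all genes. In air 0 of 8 were called, beside 0.342% of all genes, and 2 of 8 had an unadjusted p under 0.05, beside 11.3%. An unmoderated test of the 2 air groups alone, run on the same values, gave 1 of 8 (Ccl4) without adjustment and 0 after Benjamini-Hochberg adjustment. In air the groups did not overlap for 1 of 8, Ccl4, as for 13.9% of all genes. Ccl22 had a log2 difference of -1.69 ± 0.36 between Nfkb1KO-O3 and WT-O3 lungs (3.23-fold, interval -2.48 to -0.90, limma unadjusted p = 0.00049, adjusted p = 0.06). Ccl17 had one of -1.23 ± 0.29 (2.35-fold, interval -1.85 to -0.61, unadjusted p = 0.00092, adjusted p = 0.086). In air these 2 genes differed by 0.42 ± 0.36 and 0.15 ± 0.29, with the higher mean in Nfkb1KO (adjusted p = 0.71 and 0.88). The verdict after O3 moved about the threshold with the arrays and settings used. Ccl22 passed it without WT-Air replicate 1 (adjusted p = 0.02) or replicate 3 (0.05, under the threshold before rounding), without both arrays that stood apart (0.046), when arrays were scaled by their medians (0.043) or as deposited (0.043), when only the 6 O3 arrays were fitted (0.029) and with array weights (0.0094). Ccl17 passed it without WT-Air replicate 1 (0.029) and with array weights (0.019). Over all 12 fits without 1 array, limma adjusted p ran from 0.02 to 0.28 for Ccl22 and 0.029 to 0.33 for Ccl17. Over the 12 other settings it ran from 0.0094 to 0.13 for Ccl22 and 0.019 to 0.2 for Ccl17.

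**Figure D3:**
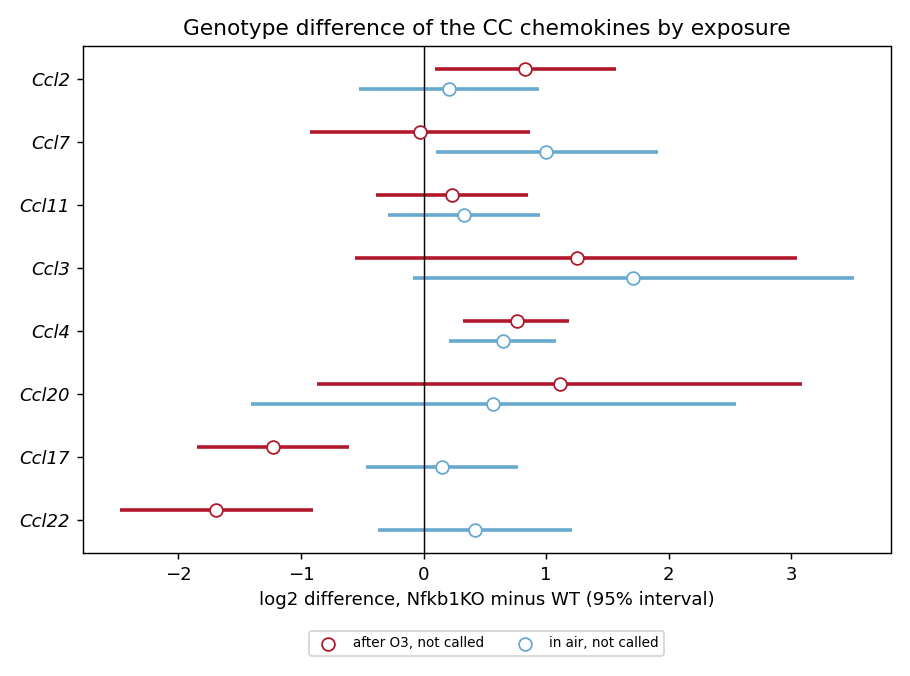
Log2 difference Nfkb1KO minus WT (horizontal axis, points with 95% intervals) of each CC chemokine after O3 (upper, red) and in air (lower, blue), where open points mark an adjusted p of at least 0.05. After O3 the intervals of Ccl17 and Ccl22 lie wholly below 0, and those of Ccl2 and Ccl4 wholly above it.

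Markers of dendritic cells, a source of both Ccr4 ligands, were read beside this. Of 13 listed genes 11 were measured, and 0 were called with limma between genotypes after O3 (median difference -0.39, against 0 over all genes). Zbtb46, Xcr1, Itgae and Fscn1, 4 of the 11, had an unadjusted p under 0.05 and lower means in Nfkb1KO-O3 lungs, while 4 of the 11 had higher means there. Of these Cd209a (DC-SIGN) differed most, averaging 8.70 in Nfkb1KO-O3 and 7.51 in WT-O3 lungs (difference 1.18 ± 0.64, adjusted p = 0.62), and in air 9.67 in Nfkb1KO and 7.13 in WT lungs (2.54 ± 0.64, unadjusted p = 0.0017, adjusted p = 0.14). The summed level of all 11 was 11.31 to 11.84 in Nfkb1KO-O3 lungs, below the 11.86 to 12.09 of WT-O3 lungs, and in air 11.82 to 11.99 in Nfkb1KO and 11.83 to 12.09 in WT lungs. Averaged over exposures 0 of the 11 were called higher and 2 lower in Nfkb1KO: Fscn1, the actin-bundling protein of mature dendritic cells (-1.19 ± 0.21, limma adjusted p = 0.011), and Itgae, the integrin of CD103+ dendritic cells and of some T cells (-0.98 ± 0.21, adjusted p = 0.03). Cd209a had the higher mean in Nfkb1KO and was not called (1.86 ± 0.45, unadjusted p = 0.0013, adjusted p = 0.058). After O3 Fscn1 averaged 8.70 ± 0.44 in Nfkb1KO and 9.95 ± 0.57 in WT lungs (SD), and in air 8.69 ± 0.37 and 9.82 ± 0.32. The genotype difference of Fscn1 changed by -0.12 ± 0.42 with O3 (limma adjusted p = 0.97). In this interaction test 0 of the 11 were called, and 1 had an unadjusted p under 0.05, with a negative difference. The median of the 11 was -0.15, against 0.01 over all genes. The part of dendritic cell number in the Ccl17 and Ccl22 values was not tested.

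Ccl20, or MIP-3α, is made by airway epithelium and macrophages and is the only known chemokine ligand of Ccr6. In Nfkb1KO lungs it had log2 signals of 8.21, 7.91 and 8.57 after O3, against 3.29, 7.0 and 6.34 in air. In WT lungs it had 7.52, 6.74 and 7.08 after O3, against 7.0, 4.28 and 3.63 in air. The air lungs were widely spread, with Nfkb1KO-Air replicate 1 and WT-Air replicates 2 and 3 below the dim limit, while the O3 lungs lay closer together and the 3 Nfkb1KO-O3 lungs lay above the 3 WT-O3 lungs. Averaged over genotypes Ccl20 rose at least 4.28-fold with O3 (2.42 ± 0.65 on the log2 scale, limma adjusted p = 0.025). Within a genotype it was not called, with differences of 2.69 ± 0.91 in Nfkb1KO (adjusted p = 0.11) and 2.14 ± 0.91 in WT (adjusted p = 0.21), nor between genotypes after O3 (1.11 ± 0.91, adjusted p = 0.78). The averaged call was lost without Nfkb1KO-O3 replicate 1 (adjusted p = 0.055) or 3 (0.054), WT-O3 replicate 1 (0.056) or WT-Air replicate 3 (0.059). Without both arrays that stood apart, each of which was below the dim limit for Ccl20, the difference was 1.56 and also not called (adjusted p = 0.05, over the threshold before rounding).

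Ccl4 was called between the genotypes and not with O3. Known as MIP-1β, it attracts T cells, natural killer cells and monocytes. Its log2 signals in Nfkb1KO lungs were 7.57, 7.77 and 7.72 after O3 and 7.63, 7.74 and 7.77 in air. In WT lungs they were 6.68, 6.86 and 7.24 after O3 and 6.93, 7.06 and 7.20 in air. All 6 Nfkb1KO lungs lay above all 6 WT lungs, as for 1.38% of all genes. Averaged over exposures Ccl4 was 0.70 ± 0.14 higher in Nfkb1KO (1.63-fold, limma adjusted p = 0.024), the only one of the 8 called in this comparison, beside 1.23% of all genes called higher and 1.98% in either direction. The difference was 0.76 ± 0.20 after O3 (adjusted p = 0.15) and 0.65 ± 0.20 in air (adjusted p = 0.24), neither called, and the averaged O3 difference was -0.08 ± 0.14 (interval -0.39 to 0.23). The averaged genotype call was held narrowly. It was lost in 7 of the 12 fits that left out 1 array, with adjusted p of 0.051 to 0.068 and log2 differences of 0.64 to 0.73 (Nfkb1KO-O3 replicate 1, 2 or 3, WT-O3 replicate 1 or 2, Nfkb1KO-Air replicate 2 or 3), and when arrays were scaled by their medians (adjusted p = 0.097).

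Ccl3, or MIP-1α, the partner of Ccl4 on the chromosome, acts on monocytes and macrophages through Ccr1. It had log2 signals of 6.34, 6.06 and 6.45 in Nfkb1KO lungs after O3, against 3.49, 5.43 and 6.04 in air. WT lungs had 3.73, 5.63 and 5.74 after O3, against 1.69, 3.54 and 4.61 in air. The Nfkb1KO-O3 lungs were above the other 9 lungs, and 4 of those 9 lay below the dim limit. No comparison of Ccl3 was called: the averaged O3 difference was 1.53 ± 0.59 (limma adjusted p = 0.1) and the averaged genotype difference 1.48 ± 0.59 with the higher mean in Nfkb1KO (adjusted p = 0.29).

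Ccl11, the eosinophil attractant that acts through Ccr3, was not called in any comparison. In Nfkb1KO lungs it had log2 signals of 7.17, 6.95 and 7.87 after O3, against 6.95, 7.37 and 7.01 in air. In WT lungs it had 7.39, 6.86 and 7.06 after O3, against 7.02, 6.41 and 6.91 in air. All 4 groups overlapped. The averaged O3 difference was 0.27 ± 0.20 (interval -0.17 to 0.71, limma adjusted p = 0.42), beside 1.31 ± 0.29 for its neighbour Ccl7 (interval 0.67 to 1.95). Eosinophil markers gave 0 of 5 measured genes called with limma in any of the 7 comparisons, 1 of them (Ccr3, with O3 in WT lungs) at an unadjusted p under 0.05, and Epx and Prg2, the granule protein genes that define the cell, lay at or near the dim limit (1.18 to 5.67 and 3.89 to 5.69).

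Receptor genes of these ligands were read beside them. Of 14 listed receptor genes 12 were measured, and with O3 limma called 0 higher, 1 lower in Nfkb1KO and 1 lower in WT lungs. Over all genes 6.18% were called in Nfkb1KO and 5.4% in WT, in either direction. At an unadjusted p under 0.05, 3 receptors were higher and 2 lower in Nfkb1KO, and 1 higher and 2 lower in WT. Small p values were common with O3. A limma unadjusted p of 0.08 ranked 4722nd of 17569 genes in Nfkb1KO, and one of 0.036 ranked 3002nd in WT. Ccr2, the receptor of Ccl2 and Ccl7, averaged 9.50 ± 0.43 in Nfkb1KO-O3 and 10.51 ± 0.15 in Nfkb1KO-Air lungs (SD), a fall of 1.01 on the log2 scale (SE 0.25, limma adjusted p = 0.031). In WT lungs Ccr2 averaged 8.78 ± 0.28 after O3 and 9.53 ± 0.47 in air (difference -0.76 ± 0.25, adjusted p = 0.1), so the mean of Ccr2 was lower where that of its ligand was higher in both genotypes. Ccr2 was also higher in Nfkb1KO than in WT lungs averaged over exposures (0.85, adjusted p = 0.024), as was Ccr1 (0.53, adjusted p = 0.027), while Ackr2, a decoy receptor that clears inflammatory CC chemokines, was lower (-0.32, adjusted p = 0.045).

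Ccr6, the receptor of Ccl20 on B cells, dendritic cells and T cells, averaged 7.39 ± 0.46 after O3 and 8.31 ± 0.31 in air in Nfkb1KO lungs (SD; difference -0.92 ± 0.26, limma adjusted p = 0.058). In WT lungs it averaged 7.29 ± 0.31 after O3 and 8.32 ± 0.24 in air, a fall of 1.03 on the log2 scale (SE 0.26, adjusted p = 0.04). Of the 6 measured B cell markers 0 were called with O3 within a genotype. At an unadjusted p under 0.05, a level common with O3, 2 were lower in Nfkb1KO and 0 in WT. Averaged over genotypes, 1 of the 6 was called lower and 0 higher, beside 15.2% of all genes called in either direction. At an unadjusted p under 0.05, 4 were lower in that comparison. Their median O3 difference was -0.86 in Nfkb1KO, -0.49 in WT and -0.63 averaged. The part of these markers in the Ccr6 values was not tested. Ccr4, the receptor of Ccl17 and Ccl22, was dim and uncalled, with O3 differences of 1.02 ± 0.45 in Nfkb1KO (adjusted p = 0.21) and 0.23 ± 0.45 in WT (adjusted p = 0.84).

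**Figure D4:**
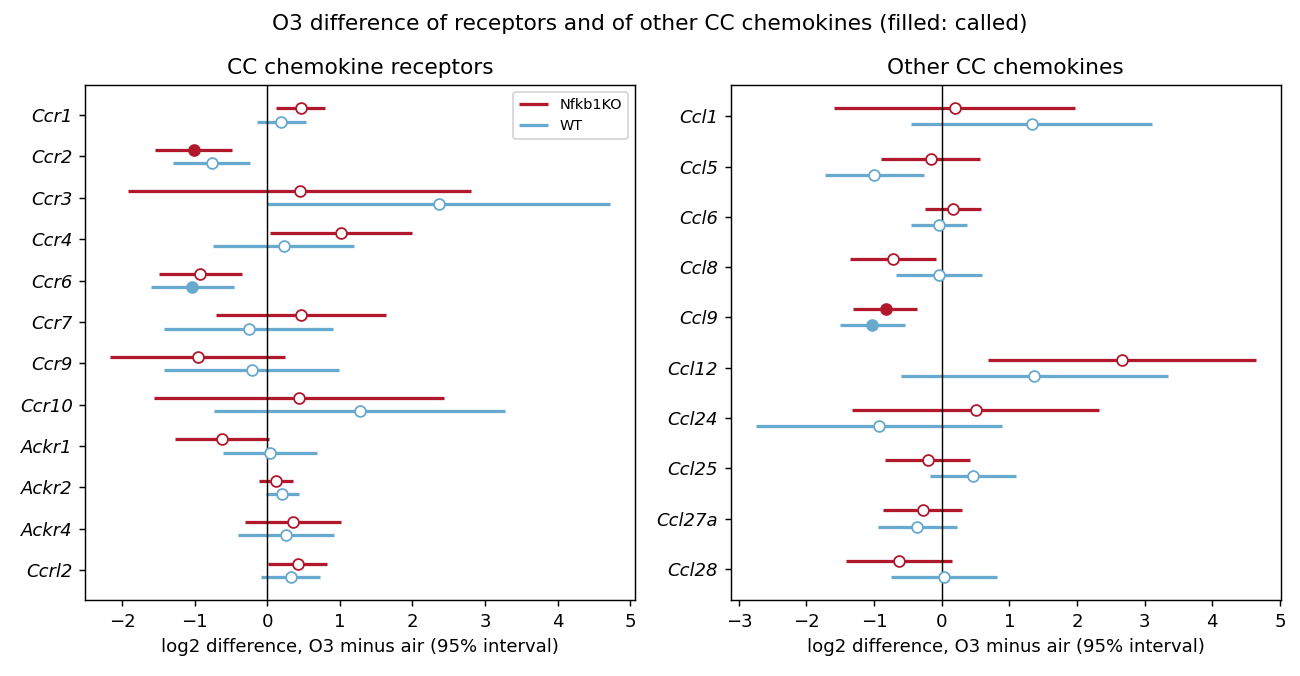
Log2 difference after O3 minus air (horizontal axes, points with 95% intervals) of 12 CC chemokine receptors (left) and 10 other CC chemokines (right) in Nfkb1KO (upper, red) and WT lungs (lower, blue), with filled points where the adjusted p was under 0.05. The filled points are Ccr2 (Nfkb1KO), Ccr6 (WT) and Ccl9 (both genotypes), all below 0.

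Among the other CC chemokines 10 of 15 listed were measured, and with O3 limma called 0 higher and 1 lower in each genotype. At an unadjusted p under 0.05, 1 was higher and 2 lower in Nfkb1KO, and 0 higher and 2 lower in WT. Such p values were common over all genes with O3, as given above. The gene called was Ccl9, a myeloid attractant acting through Ccr1. It fell by 0.83 in Nfkb1KO (SE 0.22, limma adjusted p = 0.043) and by 1.03 in WT lungs (SE 0.22, adjusted p = 0.019). Ccl5 (RANTES), an attractant of T cells and monocytes, was the only one called between genotypes after O3. It averaged 10.39 in Nfkb1KO-O3 and 8.22 in WT-O3 lungs (difference 2.17 ± 0.34, 4.5-fold, adjusted p = 0.0095), and was 3.37-fold higher in Nfkb1KO averaged over exposures (adjusted p = 0.002). The median O3 difference of the 10 was -0.19 in Nfkb1KO and -0.04 in WT lungs, beside the 1.02 and 1.79 of the 8 members, which were proposed with such results in view. In each genotype 4 of the 10 had a higher mean after O3, among them Ccl12, which was not called. Ccl12 averaged 7.49 after O3 and 4.83 in air in Nfkb1KO lungs, where 1 air array lay below the dim limit. In WT lungs it averaged 7.25 after O3 and 5.88 in air.

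Of 15 cytokines known to induce CC chemokines 13 were measured, Tnf and Il13 not being among them. With O3 2 were called, both higher in both genotypes, beside 3.35% of all genes called higher in Nfkb1KO and 3.16% in WT. Il6, a cytokine of the acute response, averaged 8.40 ± 0.22 in Nfkb1KO-O3 and 5.22 ± 0.33 in Nfkb1KO-Air lungs (SD; 9.04-fold, limma adjusted p = 0.001). In WT lungs Il6 averaged 7.24 ± 0.36 after O3 and 3.79 ± 0.65 in air, where all 3 arrays lay below the dim limit (at least 7.31-fold, adjusted p = 0.00049). Il33, an alarmin of alveolar and airway epithelium, rose by 0.76 in Nfkb1KO and 0.71 in WT lungs (adjusted p = 0.0032 and 0.0044). The interaction was not called for Il6 (-0.28 ± 0.52) or Il33 (0.05 ± 0.16). Il4 and Tslp, which induce Ccl17 and Ccl22, were not called in any comparison, and Il4 was at or below the dim limit in some arrays. Between genotypes after O3, limma called 0 of the 13. At an unadjusted p under 0.05, 3 were higher and 1 lower in Nfkb1KO, beside 9.43% of all genes. Averaged over exposures, limma called 1 of the 13 higher in Nfkb1KO and 0 lower, beside 1.23% of all genes called higher. In that comparison 9 of the 13 had the higher mean in Nfkb1KO. Il6 lay at 8.17 to 8.62 in Nfkb1KO-O3 and 6.88 to 7.61 in WT-O3 lungs. In air Il6 lay at 4.85 to 5.48 in Nfkb1KO and 3.03 to 4.21 in WT lungs. Csf2, of the same list, lay at 5.99 to 6.47 in Nfkb1KO-O3 and 6.82 to 7.78 in WT-O3 lungs. In air the groups overlapped, at 5.90 to 7.07 in Nfkb1KO and 6.61 to 7.70 in WT lungs. The Csf2 mean was lower in Nfkb1KO in air too (6.33 against 7.10).

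Markers of cells that make or answer these chemokines also moved, and their part in the results was not tested. Of 9 listed monocyte markers 6 were measured, and Plac8 and Ms4a4c were called higher in Nfkb1KO both after O3 (1.21 ± 0.16 and 1.81 ± 0.25, limma adjusted p = 0.0021 and 0.0036) and in air (1.15 ± 0.16 and 1.34 ± 0.25, adjusted p = 0.0087 and 0.046). Fn1 and Vcan, of the same list, had lower means in Nfkb1KO-O3 than in WT-O3 lungs and were not called (-0.38 ± 0.14 and -0.58 ± 0.24, unadjusted p = 0.022 and 0.03, adjusted p = 0.39 and 0.43). The summed monocyte level was 14.61 to 14.81 in Nfkb1KO-O3, 14.58 to 14.63 in WT-O3, 14.49 to 14.65 in Nfkb1KO-Air and 14.19 to 14.43 in WT-Air lungs. This sum of linear signals was set mostly by Chil3 and Fn1, which averaged 13.90 and 12.45 in Nfkb1KO-O3 lungs. Chil3 also stood in the list of alveolar macrophage markers, so the sum is not a measure of monocytes alone. Of 10 neutrophil markers 8 were measured, and their summed level was 11.72 to 12.21 in Nfkb1KO-O3 and 10.75 to 10.92 in WT-O3 lungs, and in air 11.68 to 12.05 in Nfkb1KO and 10.97 to 11.32 in WT lungs. These sums, like the signals of Ccl4, separated the genotypes in both exposures. They were set mostly by S100a8 and S100a9, which averaged 10.83 and 10.05 in Nfkb1KO-O3 lungs. Limma called 2 of the 8 genes higher in Nfkb1KO after O3 and 1 in air, and 0 lower. Over all genes 0.723% and 0.342% were called in either direction. The mean was higher in Nfkb1KO for 8 of 8 genes after O3 and for 6 in air. In air Mmp9 averaged 7.99 in Nfkb1KO and 8.65 in WT lungs. Of 8 measured alveolar macrophage markers 3 were called higher with O3 in each genotype, among them Marco, a scavenger receptor (1.93 ± 0.22 in Nfkb1KO and 1.03 ± 0.22 in WT, adjusted p = 0.001 and 0.02). Over all genes 3.35% were called higher with O3 in Nfkb1KO and 3.16% in WT lungs. The mean was higher after O3 than in air for 6 of these 8 markers in Nfkb1KO and for 5 in WT. Between genotypes, 5 of the 8 had the higher mean in Nfkb1KO after O3, and 3 of the 8 in air. The mean of Marco was lower in Nfkb1KO than in WT lungs in both exposures. It was 9.32 in Nfkb1KO-O3 and 10.17 in WT-O3 lungs, and 7.38 in Nfkb1KO-Air and 9.14 in WT-Air lungs.

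The genes whose pattern over the 12 arrays lay nearest to that of each called member, by the mean absolute difference of log2 signal after each gene was centred on its own mean, fell into unlike kinds. For Ccl2 they were F3 (tissue factor, 0.32), Tgm1 (a transglutaminase of squamous epithelium, 0.34) and Sele (E-selectin of activated endothelium, 0.38), where Ccl2 itself deviated from its mean by 1.09. For Ccl17 they were Tnc (tenascin C, 0.35), Tgm1 (0.38) and Slc26a4 (the anion exchanger pendrin, 0.39), with an own deviation of 0.99. Ccl22 lay nearest to Slc5a1 (a sodium-glucose transporter, 0.32) and to the mitotic genes Hmmr (0.33) and Cenpf (0.36), with an own deviation of 0.67. Ccl4 lay nearest to the interferon-inducible genes Dtx3l (0.12), Parp9 (0.14) and Ifih1 (0.14), with an own deviation of 0.35. For Ccl7 they were Mt2 (a metallothionein, 0.25), A930018P22Rik (0.27) and Neu2 (0.28), and for Ccl20 Aldh1a3 (0.52), D1Pas1 (0.68) and Krt88 (0.70), with own deviations of 0.68 and 1.39. Among the members themselves the mean absolute difference was smallest for Ccl4 and Ccl11 (0.35) and Ccl7 and Ccl11 (0.53), whose own spread is small, followed by Ccl2 and Ccl17 (0.60), Ccl17 and Ccl22 (0.63) and Ccl2 and Ccl20 (0.65). These values are descriptions over 12 arrays that share their exposures and genotypes.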

How the data were processed

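Total RNA of the left lung was hybridised 1 mouse per array. The authors deposited linear signal intensities made with MAS5 in Affymetrix Expression Console (versions not given in the sources used here), scaled to a trimmed mean of 500 per array. No detection calls were used, so that dim signals were kept without a check that the transcript was detected. The number of arrays limits the precision. In R 4.3.3, signals were raised to at least 1, put on the log2 scale and quantile normalised over 12 arrays without the 64 control probe sets. Probe sets above the 20th percentile of at least 1 array were kept (42559 of 45101), and that with the highest mean stood for its gene (17569 genes). The platform annotation gave 1 symbol for 34958 probe sets, several for 932 and none for 9211. Groups came from the sample labels. Group means were fitted with limma 3.58.1 (trended spread, 12.6 degrees of freedom with the prior), two-sided, with Benjamini-Hochberg adjustment over all genes. The 7 comparisons were genotype in air and after O3, O3 in each genotype, the interaction, and both averages. An exact test of 3 against 3 arrays cannot go below p = 0.1. Where the dimmer group held an array within the lowest 20%, values were raised to that limit and the fold is called "at least". The summed level of a list is the log2 of its summed linear signals. Named genes were the 8 members, up to 3 called genes per list by p, and the 3 genes nearest to each called member. Other genes, given with values and no call, were picked after their values were seen. The members and lists were chosen with earlier results of these data known. Alternatives covered scaling, dim values, probe set choice, weights, the fit and left-out arrays. The procedure was tested on simulated data.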

Additional observations from a re-analysis of the deposited data

Results flagged for a closer look

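The mean O3 difference of Ccl22 had opposite signs in the 2 genotypes, but no fall was shown in Nfkb1KO lungs (-0.38 ± 0.36, interval -1.16 to 0.41, limma adjusted p = 0.6), where O3 and air lungs overlapped, against 1.73 ± 0.36 in WT lungs (adjusted p = 0.018). Every Nfkb1KO-O3 lung lay below the mean of the Nfkb1KO-Air lungs, and every WT-O3 lung above the mean of the WT-Air lungs. The O3 difference in Nfkb1KO minus that in WT was -2.11 on the log2 scale (interval -3.22 to -0.99), with a limma unadjusted p of 0.0013 that did not pass the adjustment over all genes (adjusted p = 0.51).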

How the results depend on the processing

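Counts of called members moved by over 1.5 times in these settings. Between genotypes after O3 the count was 1 in place of 0 with arrays centred on their medians, with the scaling as deposited, with only the arrays of the groups compared and without both arrays that stood apart, and 2 with array weights. With O3 in Nfkb1KO lungs it was 1 in place of 2 with no trend in the spread and without both arrays that stood apart. For genotype averaged over exposures it was 0 in place of 1 with arrays centred on their medians. When each array was left out in turn, the counts ranged from 0 to 2 (genotype after O3), 1 to 2 (O3 in Nfkb1KO), 2 to 4 (O3 in WT), 3 to 5 (O3 averaged) and 0 to 1 (genotype averaged), and stayed at 0 for genotype in air and for the interaction. The cause was not tested. Directions turned for uncalled differences only: Ccl4 with O3 in Nfkb1KO was 0.10 after median centring, which put the median of all genes at 0.25, Ccl11 with O3 in Nfkb1KO was -0.12 and the Ccl4 interaction -0.06 with the scaling as deposited, which put that median at -0.12 for O3 in Nfkb1KO, and the Ccl3 interaction was 0.19 with signals under 16 set to 16. Leaving out 1 array turned these uncalled differences, whose ranges were, for genotype in air, Ccl2 -0.13 to 0.56, Ccl17 -0.04 to 0.48 and Ccl20 -0.16 to 1.71, for genotype after O3, Ccl7 -0.25 to 0.15 and Ccl11 -0.04 to 0.42, for O3 in Nfkb1KO, Ccl4 -0.07 to 0.03 and Ccl11 -0.05 to 0.41, and for the interaction, Ccl3 -1.22 to 0.33, Ccl4 -0.01 to 0.27, Ccl11 -0.37 to 0.09 and Ccl20 -0.57 to 1.27. Calls of single members lost beyond those given above were Ccl17 with O3 in Nfkb1KO with no trend in the spread (adjusted p = 0.068, limma), Ccl7 with O3 in WT when only those 6 arrays were fitted (0.069), and Ccl20 averaged with no trend (0.062) and with the methods' two-way test (0.087). Over all genes, median centring called 308 genes with O3 in Nfkb1KO in place of 1086 and 87 in WT in place of 949. Same-numbered replicates of the groups share only a number: their deviations correlated by -0.17 to 0.11 over 18 pairs, 1 of them over 0.1. With the replicate number as a block, the Ccl7 call with O3 in WT was lost (difference 1.83, adjusted p = 0.052), Ccl3 averaged over genotypes was called (difference 1.53, adjusted p = 0.035), and no other call of a member changed. Dim signals limit the precision for Ccl3, Ccl7 and Ccl20 in air, where at least 1 array of a group lay at or below the dim limit.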
